A study of Mus musculus with 18 samples.

Results

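The ionotropic and metabotropic receptors for glutamate and GABA were followed through 18 RNA-seq libraries of mouse cortex taken after spreading depolarization (SD), a slowly travelling wave in which nearly all neurons and glia depolarize. The genes were chosen by symbol, with earlier results of these data known. The rule took every listed gene named as a subunit of an AMPA, kainate, NMDA, metabotropic glutamate, GABA-A or GABA-B receptor. The deposited tables list 36 of these among the 13029 genes listed for both ways of eliciting SD. Of the 36, 32 are described here, 21 for glutamate and 11 for GABA, and other genes of these families were not analysed here. All 32 genes had a mean of at least 0.5 FPKM (fragments per kilobase of transcript, scaled to the mapped fragments of the library) over the libraries.

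All animals were healthy female C57BL/6 mice of 7 to 8 weeks, and each stimulated mouse had 4 SDs within 2 h, 30 min apart. In the KCl system wild-type (WT) mice received KCl on the cortex and the sham mice NaCl. In the optogenetic system every mouse, sham included, was heterozygous for Thy1-ChR2-YFP, a channelrhodopsin transgene under the Thy1 promoter, which is active in a subset of neurons. SD was set off there by light of 2 mW for 20 s, and what the sham mice received is labelled only as sham. Each system has 3 libraries of the left, SD-bearing hemisphere, 3 from the right, contralateral side of those mice and 3 from sham animals, so that 12 mice gave the 18 libraries. The hemisphere taken from sham mice and the time of collection are not given in the sources used here, and SD, the stimulus and the side cannot be told apart in these groups.

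AMPA, kainate and NMDA receptors are cation channels that carry fast excitation, and NMDA receptors also admit calcium and are known to help SD start and spread. The metabotropic glutamate receptors signal through G proteins, those of group I mostly from the postsynaptic side and those of groups II and III mostly at terminals or on glia. GABA-A receptors are chloride channels built from alpha, beta and either gamma or delta subunits, and the GABA-B receptor is a G protein-coupled pair of Gabbr1 and Gabbr2.

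Read counts are not in the tables, so depth is unknown and no counting interval is given. FPKM of the listed genes summed to 223564 to 237318 in KCl-system libraries and to 217205 to 225813 in optogenetic ones. Markers of the labelled tissue were present: all 8 of excitatory cortical neurons were listed, with a summed level of 435.8 to 507.4 FPKM, as were all 7 of inhibitory neurons, with 417.0 to 486.1 FPKM. Neighbouring tissue varied more between libraries. The 7 striatal markers summed to 48.8 to 257.4 FPKM and the 6 choroid plexus markers to 3.87 to 1126 FPKM. Of 4 markers of cerebellar granule cells 1 was listed.

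The GABA-B pair and the AMPA subunits Gria1 and Gria2 were the most abundant of the 32 transcripts. FPKM is a level per transcript length, so genes can be set side by side. Gabbr1, which carries the GABA binding site of the GABA-B receptor (ENSMUSG00000024462.17, GRCm38 chromosome 17, 37045966 to 37075067, plus strand), had the highest mean, 74.2 ± 2.83 FPKM (standard deviation, n = 18 libraries). Next came Gria1, an AMPA subunit delivered to synapses during plasticity, at 73.4 ± 6.13 FPKM. Gabbr1 measured 73.7, 68.1 and 75.6 FPKM in NaCl sham, 75.4, 74.9 and 73.4 in the KCl SD hemisphere and 77.8, 71.7 and 68.8 in the KCl contralateral one. Light-stimulated and sham libraries of Gabbr1 gave 76.2, 75.4 and 76.4 FPKM in sham, 72.9, 74.1 and 72.5 in the SD hemisphere and 73.3, 78.99 and 76.9 in the contralateral one. The spread of Gabbr1 was the narrowest of the 32 relative to its level, the highest library being 1.16 times the lowest. Gria1 measured 75.95, 67.5 and 70.5 FPKM in NaCl sham, 78.04, 81.4 and 60.97 in the KCl SD hemisphere and 77.9, 79.3 and 81.9 in the KCl contralateral one. Gria1 in the optogenetic system was at 71.5, 72.8 and 79.7 FPKM in sham, 70.7, 73.4 and 71.6 on the SD side and 76.8, 61.3 and 70.2 contralaterally. In both systems 1 hemisphere library stood below the others, a KCl SD hemisphere at 61.0 and an optogenetic contralateral one at 61.3 FPKM. The means of Gabbr1 and Gria1 differ by less than the standard deviation of Gria1 over libraries.

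Gabbr2, the partner that couples the GABA-B receptor to its G protein, followed at 60.8 FPKM, Gria2, the subunit that makes AMPA receptors calcium-impermeable, at 52.4, and Gabra3, an alpha subunit of deeper layers, at 37.1 FPKM.

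Among kainate subunits Grik5, an auxiliary-type subunit that forms channels only with Grik1 to Grik3, was the most abundant with 26.7 FPKM, and Grik1 the least with 2.67 FPKM. Of the NMDA subunits the obligatory Grin1 was highest with 29.9 FPKM. Grin1 measured 29.3, 29.4 and 24.5 FPKM in NaCl sham, 26.4, 21.6 and 21.9 in the KCl SD hemisphere and 29.6, 20.2 and 20.99 in the KCl contralateral one. In optogenetic mice Grin1 stood at 44.8, 33.5 and 27.8 FPKM in sham, 32.04, 31.1 and 30.3 on the SD side and 41.9, 31.5 and 41.5 on the contralateral side. Its libraries ranged from 20.2 to 44.8 FPKM, and the optogenetic sham mice alone spanned 27.8 to 44.8 FPKM. An antisense gene, Grin1os, overlaps 7706 bases of the Grin1 locus. The library kit keeps strand, but whether strand was used when the FPKM were computed is not given, so reads of the pair cannot be told apart with certainty. Grin2b and Grin2a, the main glutamate-binding NMDA subunits of cortex, averaged 26.3 and 17.99 FPKM, Grin2c 6.91, Grin3a 3.63 and Grin2d, an interneuron-enriched subunit, 1.83 FPKM, the lowest of the 32. Among further overlaps, the protein-coding Kdelr1 shares 5607 bases with the Grin2d locus on the opposite strand. Ppp3r2, also protein-coding, shares 3278 bases with the Grin3a locus on the same strand. The part of these overlaps in the values of Grin2d and Grin3a was not tested.

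The metabotropic receptors were led by Grm3, a group II receptor found largely on astrocytes, at 26.4 FPKM and by Grm5, the main forebrain group I receptor, at 26.1 FPKM, means that are closer than the spread of either. Grm5 measured 27.9, 26.4 and 24.7 FPKM in NaCl sham, 28.5, 27.5 and 28.4 in the KCl SD hemisphere and 27.6, 26.5 and 28.5 in the KCl contralateral one. Light-stimulated and sham libraries of Grm5 gave 23.7, 23.6 and 25.3 FPKM in sham, 23.3, 25.5 and 24.1 in the SD hemisphere and 25.7, 26.03 and 25.5 in the contralateral one. Among group III receptors Grm7, a presynaptic receptor, averaged 10.6 FPKM. Grm7 measured 10.2, 10.5 and 11.4 FPKM in NaCl sham, 11.2, 10.9 and 10.8 in the KCl SD hemisphere and 11.9, 10.5 and 11.1 in the KCl contralateral one. Grm7 in the optogenetic system was at 10.4, 11.1 and 9.64 FPKM in sham, 10.3, 9.09 and 9.94 on the SD side and 10.3, 10.04 and 10.7 contralaterally. All 18 Grm7 values lie between 9.09 and 11.9 FPKM. Grm4 averaged 5.01 and Grm8 1.92 FPKM. The order of the 32 genes was nearly the same in every library: the Spearman correlation of member levels between any pair of libraries ran from 0.9 to 0.997, a description over 32 genes whose differing lengths and shared pipeline also enter it.

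**Figure D1:**
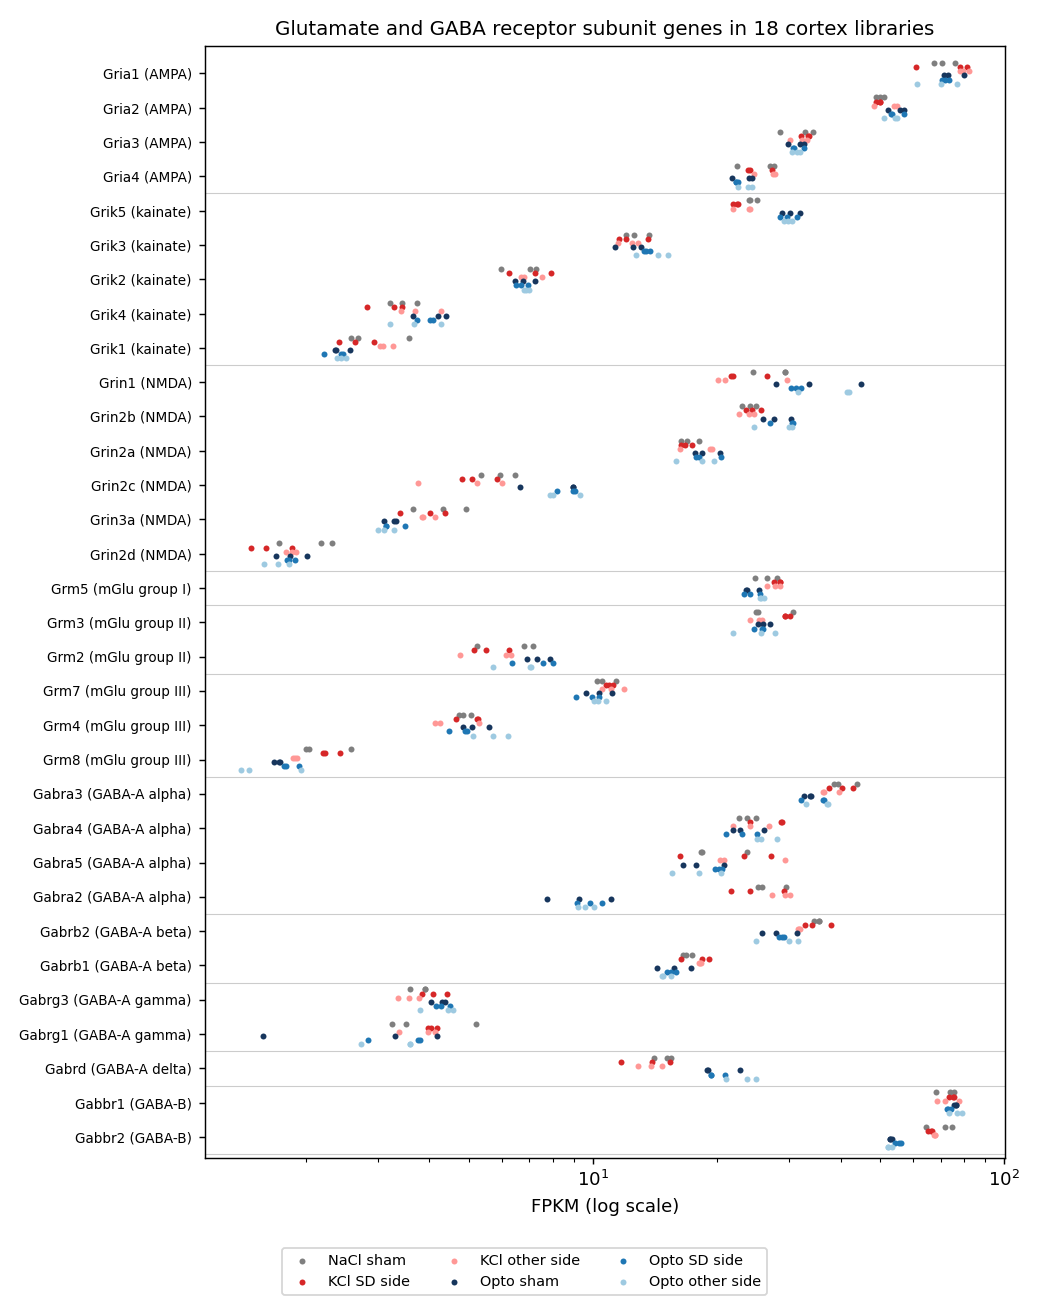
Level of each of the 32 receptor genes in FPKM (log axis), with 1 point per library, 3 libraries in each of 6 groups, and horizontal lines between receptor classes. Levels run from 1.83 FPKM on average for Grin2d to 74.2 for Gabbr1, and the points of most genes cluster by gene rather than by group, with Gabra2 split into 9 higher KCl-system and 9 lower optogenetic-system libraries.

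Receptor transcripts varied little between mice of a group. The within-group standard deviation of log2(FPKM + 0.5) had a median of 0.104 over the 32 genes, against 0.126 over all genes tested and 0.115 over the 10078 genes with a mean in the same range. Gabbr2 was the steadiest at 0.047, and Gabrg1, a gamma subunit outside most cortical synapses, the least steady at 0.310. In 1 optogenetic sham library Gabrg1 was 1.57 FPKM, against 3.30 and 4.18 FPKM in the other two. Gabra5, an extrasynaptic alpha subunit, came next at 0.233 and Grin1 at 0.226.

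What SD changes in the cortex, the question of the study, was put to these genes in 6 comparisons within the systems and in 3 averages over both. None of the 32 subunits passed the test in any of them. Each system was fitted with limma on log2(FPKM + 0.5) over its 9 libraries, and genes counted as called where the Benjamini-Hochberg adjusted p over all of them was under 0.05. Differences below are on that log2 scale, with standard errors (SE) from limma. Since the tissue was bulk, fewer cells of a type and less RNA per cell cannot be told apart.

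For the KCl SD hemisphere against NaCl sham, limma called 0 of 32 subunits and 0.0694% of 12972 genes. At an unadjusted p under 0.05 there were 2 subunits, 6.25%, against 7.92% of all genes. Between the hemispheres of the KCl mice 0 subunits were called, against 0.347% of genes, with 3 subunits against 9.88% of genes at the unadjusted threshold. For the contralateral hemisphere against NaCl sham 0 subunits and 0.00771% of genes were called, with 1 subunit against 5.6% of genes unadjusted.

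In the optogenetic system the SD hemisphere against sham gave 0 called subunits and 0.477% of 13001 genes, with 0 subunits and 8.73% of genes unadjusted. Between the hemispheres 0 subunits and 0.531% of genes were called, with 2 subunits and 8.72% unadjusted. The contralateral hemisphere against sham gave 0 subunits and 0.00769% of genes, with 1 subunit and 5.8% unadjusted. In the authors' deposited tables no subunit had a q under 0.05 in any of the 6 comparisons, and the smallest subunit q of a comparison ran from 0.256 to 0.916 there.

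Averaging the effect over both systems, with 6 mice on the SD side, narrowed the intervals and still gave no call. For the SD hemisphere against sham limma called 0 subunits and 0.967% of 12930 genes, 125 in number, with 1 subunit and 11.3% of genes at an unadjusted p under 0.05. Against the contralateral side it called 0 subunits and 1.73% of genes, 224 in number, with 2 subunits and 12.4% unadjusted. For the contralateral side against sham it called 0 subunits and 0.0155% of genes, with 0 subunits and 4.9% unadjusted.

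The intervals bound the change that could have gone uncalled. In all 3 averaged comparisons the 95% interval of each of the 32 subunits lay inside a 1.5-fold change in either direction. For the SD hemisphere against sham 27 of the 32 intervals also lay inside a 1.2-fold change, for SD against contralateral 26, and for contralateral against sham 26. Within a single system the 1.5-fold bound held for 30 to 32 of the 32 genes, and the exceptions were Gabra5 in KCl contralateral against sham, Gabrg1 in all 3 optogenetic comparisons and Grin1 between the optogenetic hemispheres. The median change of the 32 genes for SD against sham was -0.01 and their median absolute change 0.048, beside -0.023 and 0.063 over all genes.

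**Figure D2:**
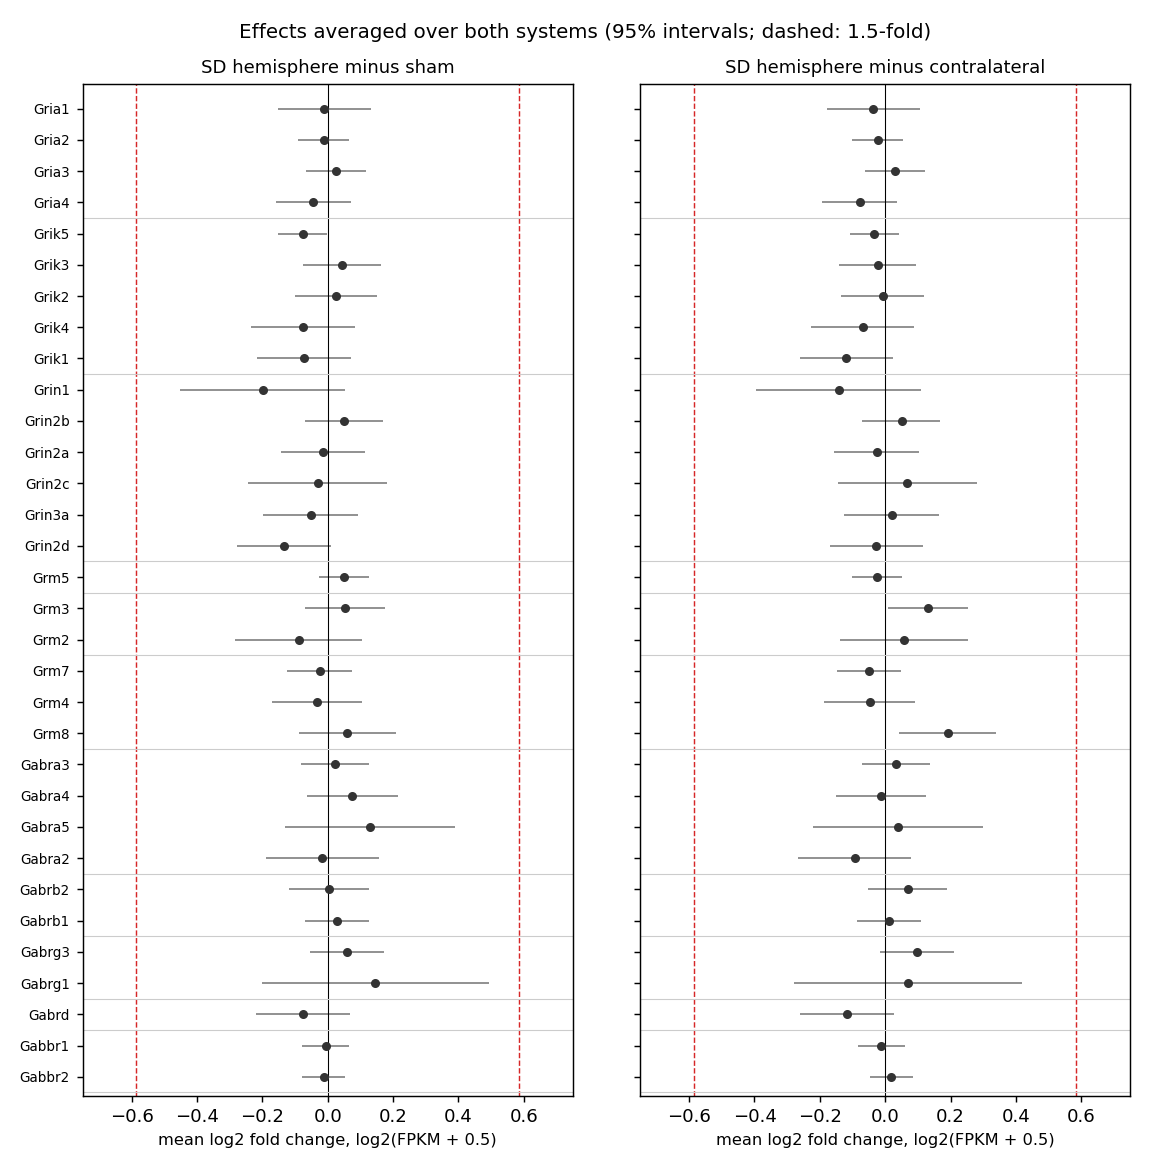
Mean log2 fold change over both systems (x axis, log2(FPKM + 0.5) scale) for the 32 receptor genes, SD hemisphere minus sham on the left and minus contralateral on the right, as points with 95% limma intervals. The dashed lines mark 1.5-fold, and all 32 intervals in both panels lie between them, with Grin1 at -0.20 farthest from 0 in the left panel and Grm8 at 0.19 in the right panel.

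By receptor class the medians against sham stayed near 0. For SD against sham over both systems the class medians were -0.01 for AMPA, -0.07 for kainate, -0.04 for NMDA, -0.02 for group II and -0.02 for group III metabotropic receptors. On the GABA side they were 0.05 for the 4 alpha, 0.02 for the 2 beta and 0.10 for the 2 gamma subunits described and -0.01 for GABA-B, and the delta subunit was at -0.08. None of these is a test, and the classes hold 1 to 6 genes each.

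Grik5, Grin2d and Gabra4 had the smallest p of KCl SD against NaCl sham. Grik5 measured 25.03, 24.1 and 23.9 FPKM in NaCl sham, 21.9, 22.4 and 22.5 in the KCl SD hemisphere and 24.02, 24.1 and 21.9 in the KCl contralateral one. The SD values lie below all 3 sham values, with a log2 difference of -0.13 (SE 0.05, limma adjusted p = 0.596). The 4 endothelial markers, all listed, summed to 24.2 to 28.1 FPKM in the KCl SD hemisphere and 30.8 to 37.4 in NaCl sham, without overlap, and their part in the values of this comparison was not tested. Grin2d measured 2.31, 1.73 and 2.18 FPKM in NaCl sham, 1.47, 1.599 and 1.86 in the KCl SD hemisphere and 1.85, 1.897 and 1.79 in the KCl contralateral one. In optogenetic mice Grin2d stood at 1.697, 1.84 and 2.01 FPKM in sham, 1.82, 1.80 and 1.89 on the SD side and 1.82, 1.72 and 1.59 on the contralateral side. The KCl difference was -0.26 (SE 0.11, adjusted p = 0.618 in limma) with overlapping groups. Gabra4, whose values are given with the optogenetic hemispheres, was at 0.18 (SE 0.09, limma adjusted p = 0.677), also with overlapping groups. Averaged over both systems Grik5 stood at -0.08 (SE 0.035, limma adjusted p = 0.435), Grin2d at -0.13 (SE 0.07, limma adjusted p = 0.478) and Grin1 at -0.20 (SE 0.12, limma adjusted p = 0.568). In KCl SD against sham 1 of 32 subunits, Grik5, had groups that did not overlap, against 13% of genes.

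Between the hemispheres of the KCl mice the low-p subunits were Grm3, Gabrb2 and Gabrg3, each higher on the SD side. Grm3 measured 24.9, 25.2 and 30.7 FPKM in NaCl sham, 30.1, 29.2 and 29.4 in the KCl SD hemisphere and 25.7, 25.4 and 24.1 in the KCl contralateral one. Light-stimulated and sham libraries of Grm3 gave 27.01, 25.2 and 25.9 FPKM in sham, 24.6, 25.9 and 25.8 in the SD hemisphere and 21.9, 25.6 and 27.7 in the contralateral one. Its KCl SD values lie above all 3 contralateral ones, a difference of 0.23 (SE 0.08, limma adjusted p = 0.39), while the optogenetic sides overlap. Gabrg3, a gamma subunit of low abundance, measured 3.58, 3.902 and 3.905 FPKM in NaCl sham, 3.84, 4.08 and 4.42 in the KCl SD hemisphere and 3.77, 3.35 and 3.57 in the KCl contralateral one. Gabrg3 in the optogenetic system was at 4.38, 4.30 and 4.04 FPKM in sham, 4.48, 4.27 and 4.14 on the SD side and 3.81, 4.44 and 4.56 contralaterally. Its KCl sides do not overlap and differ by 0.18 (SE 0.08, limma adjusted p = 0.501). The 6 choroid plexus markers, all listed, summed to 470.4 to 590.6 FPKM on the KCl SD side and 13.6 to 468.4 contralaterally, without overlap, and their part in these values was not tested.

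Grm8, a presynaptic group III receptor, had the smallest p of the averaged SD against contralateral comparison. Grm8 measured 2.04, 2.01 and 2.58 FPKM in NaCl sham, 2.42, 2.202 and 2.23 in the KCl SD hemisphere and 1.86, 1.88 and 1.91 in the KCl contralateral one. Optogenetic values of Grm8 were 1.73, 1.73 and 1.68 FPKM in sham, 1.77, 1.93 and 1.79 in the SD hemisphere and 1.39, 1.95 and 1.46 in the contralateral one. In the KCl mice the sides do not overlap, and in the optogenetic mice 1 contralateral value lies above the SD values. The averaged difference was 0.19 (SE 0.07, limma adjusted p = 0.24), that of Grm3 0.13 (SE 0.06, adjusted p = 0.356) and that of Gabrg3 0.10 (SE 0.05, adjusted p = 0.487). Tbr1, a deep-layer excitatory neuron marker, was higher on the SD side by 0.43 in the same limma comparison (SE 0.07, adjusted p = 0.00264), and its part in these values was not tested. It was the only call among 63 markers tested, 1.59%, beside 1.73% of all genes. Groups did not overlap for 6 of 32 subunits between the KCl hemispheres, against 17.2% of genes.

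For the contralateral KCl hemisphere against NaCl sham the smallest p values belonged to Gabrb2, Grm8 and Grin1. Gabrb2, an abundant cortical beta subunit, measured 34.5, 35.4 and 35.5 FPKM in NaCl sham, 34.02, 32.7 and 37.9 in the KCl SD hemisphere and 31.5, 31.7 and 31.9 in the KCl contralateral one. In optogenetic mice Gabrb2 stood at 31.4, 25.7 and 27.8 FPKM in sham, 28.3, 28.7 and 29.2 on the SD side and 24.9, 31.5 and 29.9 on the contralateral side. The contralateral values lie below all 3 sham and all 3 SD values, a difference of -0.15 from sham (SE 0.06, limma adjusted p = 0.877) and of 0.13 between the sides (SE 0.06, limma adjusted p = 0.499). Grm8 was at -0.18 against sham (SE 0.10, adjusted p = 0.881 in limma), its groups not overlapping, and Grin1 at -0.245 (SE 0.15, adjusted p = 0.881 in limma), with overlapping groups. In this comparison 4 of 32 subunits did not overlap, against 10.7% of genes.

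In the optogenetic system the smallest p values of SD against sham belonged to Gabbr2, Grik3 and Gabbr1, with differences of 0.06 (SE 0.035), 0.13 (SE 0.075) and -0.05 (SE 0.039) and limma adjusted p of 0.655, 0.67 and 0.736. Grik3, a kainate subunit, measured 12.5, 13.1 and 11.3 FPKM in optogenetic sham, 13.3, 13.5 and 13.7 in the optogenetic SD hemisphere and 12.7, 14.4 and 15.2 in the contralateral one. In KCl-system mice Grik3 stood at 12.02, 12.6 and 13.7 FPKM in sham, 12, 11.6 and 13.6 on the SD side and 11.5, 12.9 and 12.4 contralaterally. The optogenetic SD values lie above the sham values. Groups did not overlap for 4 of 32 subunits in this comparison, against 14.5% of genes. Gja1, the astrocytic connexin, was lower by 0.50 in the optogenetic SD hemisphere than in sham (SE 0.08, limma adjusted p = 0.0319), and its part in the receptor values was not tested. It was the only call among 62 markers tested, 1.61%, beside 0.477% of all genes. The 6 astrocyte markers overlapped in sum, at 295.1 to 307.6 FPKM on the SD side and 291.5 to 343.3 in sham.

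Between the optogenetic hemispheres Grm4, Gabrd and Gabra4 were each lower on the SD side. Grm4, a presynaptic group III receptor, measured 5.08, 4.83 and 5.601 FPKM in optogenetic sham, 4.89, 4.93 and 4.46 in the optogenetic SD hemisphere and 5.11, 6.23 and 5.704 in the contralateral one. In KCl-system mice Grm4 stood at 4.83, 5.06 and 4.74 FPKM in sham, 4.65, 5.23 and 5.25 on the SD side and 5.296, 4.25 and 4.14 contralaterally. The optogenetic sides do not overlap and differ by -0.23 (SE 0.09, limma adjusted p = 0.475). Gabrd, the delta subunit of extrasynaptic GABA-A receptors, differed by -0.22 (SE 0.09, limma adjusted p = 0.515). Gabra4, an alpha subunit that often pairs with delta, measured 21.9, 26.1 and 22.8 FPKM in optogenetic sham, 23.04, 24.99 and 21.1 in the optogenetic SD hemisphere and 25.1, 28.1 and 25.6 in the contralateral one. In KCl-system mice Gabra4 stood at 24.9, 22.7 and 23.7 FPKM in sham, 28.8, 24.1 and 28.6 on the SD side and 26.9, 21.9 and 24.1 contralaterally. Its optogenetic difference was -0.19 (SE 0.08, limma adjusted p = 0.588). The striatal markers summed to 90.2 to 169.4 FPKM in the optogenetic SD hemisphere and to 209.7 to 246.0 on the contralateral side, and the 8 excitatory neuron markers to 488.0 to 502.2 and 442.3 to 452.2 FPKM. Neither pair of groups overlaps, and their part in the 3 differences was not tested. In this comparison 5 of 32 subunits did not overlap, against 14.9% of genes.

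For the optogenetic contralateral side against sham, Grik3 differed by 0.19 (SE 0.075, limma adjusted p = 0.843), Gabrd by 0.19 (SE 0.09, limma adjusted p = 0.843) and Gabra4 by 0.15 (SE 0.08, limma adjusted p = 0.865), all with overlapping groups. Marker sums did not overlap here for striatum (209.7 to 246.0 FPKM contralaterally, 83.3 to 204.0 in sham), excitatory neurons (442.3 to 452.2 against 465.5 to 494.0) and inhibitory neurons (447.9 to 486.1 against 417.0 to 438.0), and their part in these values was not tested. There 1 of 32 subunits, Grm5 at 0.09, did not overlap, against 10.9% of genes. Averaged over both systems the contralateral side against sham was led by Grm5 at 0.08 (SE 0.04), Grm8 at -0.13 (SE 0.07) and Grm2, a group II receptor, at -0.15 (SE 0.09), each with a limma adjusted p of 0.978.

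The KCl and the optogenetic effect were also compared directly, by the interaction. For SD against sham 0 of 32 subunits and 0% of genes were called, and 1 subunit had an unadjusted p under 0.05, beside 5.53% of genes. This was Gabbr2 at -0.15 (SE 0.06, limma adjusted p = 0.879), and Grin2d came next at -0.26 (SE 0.13, limma adjusted p = 0.879), before Gabra4 at 0.22 (SE 0.13, limma adjusted p = 0.881). For SD against contralateral 0 subunits and 0% of genes were called, and 2 subunits had an unadjusted p under 0.05, beside 6.14% of genes. Grm4 differed there by 0.37 (SE 0.13) and Gabra4 by 0.34 (SE 0.13), both with a limma adjusted p of 0.703, followed by Grik4 at -0.30 (SE 0.15, adjusted p = 0.837). Grik4, a kainate subunit, measured 3.73, 3.21 and 3.44 FPKM in NaCl sham, 3.29, 3.43 and 2.83 in the KCl SD hemisphere and 3.69, 4.27 and 3.405 in the KCl contralateral one. Light-stimulated and sham libraries of Grik4 gave 4.21, 3.65 and 4.39 FPKM in sham, 4.005, 3.73 and 4.08 in the SD hemisphere and 4.26, 3.67 and 3.21 in the contralateral one. Intervals were wider here. They stayed inside 1.5-fold, on the log2 scale used, for 29 of 32 subunits in SD against sham. In SD against contralateral they did so for 25.

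Receptor subunits passed the test between the systems. NaCl sham was set against optogenetic sham in the 18-library limma fit, and 7 of 32 subunits, 21.9%, were called, against 15.9% of 12930 genes, a share near the background. Of the 7, Gabra2, Gabbr2, Gabra3, Gabrb2 and Grin3a were higher in NaCl sham and Grik5 and Gabrd lower. Genotype, sham procedure and anything else that differs between the separately deposited tables go together here and cannot be told apart, and whether the tables were normalised together is not given. Of 63 cell-type and regional markers tested in the same comparison 5 were called, 7.94%, below the 15.9% of all genes. They include 2 of 5 oligodendrocyte markers: Mag was 0.85 lower in NaCl sham (SE 0.11, limma adjusted p = 2.19e-04) and Mbp 0.35 lower (SE 0.10, limma adjusted p = 0.0243). All 5 listed oligodendrocyte markers summed to 411.6 to 461.6 FPKM in NaCl sham and 456.1 to 659.0 in optogenetic sham, with overlap. Tbr1 and Sst were higher by 0.35 and 0.28 (limma adjusted p = 0.0265 and 0.0259) and Aldh1l1, an astrocyte marker, lower by 0.25 (limma adjusted p = 0.0417). Sums did not overlap for the 7 inhibitory neuron markers (465.8 to 481.3 FPKM in NaCl sham, 417.0 to 438.0 in optogenetic sham) and the 4 of oligodendrocyte precursors (48.3 to 54.8 against 55.05 to 64.7). The part of these cell-type markers in the receptor values was not tested.

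Gabra2, an alpha subunit of synapses on the axon initial segment and cell body (ENSMUSG00000000560.9, GRCm38 chromosome 5, 70957597 to 71095849, minus strand), differed most. Gabra2 measured 29.5, 25.8 and 25.2 FPKM in NaCl sham, 21.6, 29.1 and 24.1 in the KCl SD hemisphere and 27.3, 29.3 and 30.1 in the KCl contralateral one. Gabra2 in the optogenetic system was at 7.75, 9.23 and 11.1 FPKM in sham, 9.17, 9.84 and 10.5 on the SD side and 9.19, 9.54 and 10.03 contralaterally. The lowest KCl-system library, at 21.6 FPKM, lies well above the highest optogenetic one, at 11.1 FPKM. NaCl sham exceeded optogenetic sham 2.80-fold, a log2 difference of 1.48 (SE 0.115, limma adjusted p = 2.51e-06). The same contrast, added after the data were seen, was 1.29 (SE 0.115) between the left hemispheres of stimulated mice and 1.54 (SE 0.115) between the right ones. Averaged over 9 against 9 libraries the difference was 1.44, and 11 of the 12930 genes differed by more.

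Gabra2 transcripts are known to be less abundant in the substrain C57BL/6J than in other C57BL/6 substrains, and C57BL/6J also carries a partial deletion of Nnt, a mitochondrial transhydrogenase. The labels give C57BL/6 for both systems without a substrain. Nnt, picked after its values were seen, measured 4.71, 5.03 and 4.56 FPKM in NaCl sham and 4.40 to 5.03 over the 9 KCl-system libraries, against 2.66, 2.36 and 2.54 in optogenetic sham and 2.36 to 2.75 over the 9 optogenetic libraries. NaCl sham was higher by 0.80 (SE 0.07, limma adjusted p = 5.37e-06). The part of substrain in the Gabra2 difference was not tested. The neighbours of Gabra2 in the GABA-A cluster of chromosome 5 were not called between the shams: Gabrg1 differed by 0.40, Gabrb1 by 0.10 and Gabra4 by 0.01. Between stimulated mice of the systems Gabrb1 was called in both hemispheres, higher in the KCl system by 0.205 in the left (SE 0.065, limma adjusted p = 0.0381) and 0.27 in the right (SE 0.065, limma adjusted p = 0.0111), while Gabrg1 and Gabra4 were called in neither.

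Gabbr2 (ENSMUSG00000039809.10, chromosome 4, 46662305 to 46991873, minus strand) measured 64.5, 71.9 and 74.7 FPKM in NaCl sham, 66.6, 65.4 and 66.5 in the KCl SD hemisphere and 67.5, 67.7 and 67.7 in the KCl contralateral one. Optogenetic values of Gabbr2 were 52.6, 52.8 and 53.3 FPKM in sham, 54.4, 55.98 and 55.6 in the SD hemisphere and 52.2, 52.3 and 53.4 in the contralateral one. The systems do not overlap, and NaCl sham was higher by 0.41 (SE 0.04, limma adjusted p = 6.67e-05). Its partner Gabbr1 did not pass the test, so the ratio of Gabbr1 to Gabbr2 was 0.948 to 1.15 in the KCl system and 1.30 to 1.51 in the optogenetic one. Grik5 (ENSMUSG00000003378.9, chromosome 7, 25009849 to 25072346, minus strand) went the other way. Its optogenetic libraries measured 30.2, 31.9 and 28.9 FPKM in optogenetic sham, 29.6, 31.3 and 28.5 in the optogenetic SD hemisphere and 29.2, 30.6 and 29.8 in the contralateral one. Every one of these exceeds the KCl-system maximum of 25.0 FPKM, and NaCl sham was lower by 0.31 (SE 0.05, limma adjusted p = 9.90e-04).

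Gabrd, likewise lower in NaCl sham, measured 15.1, 14.1 and 15.5 FPKM in NaCl sham, 11.7, 13.9 and 15.4 in the KCl SD hemisphere and 14.7, 13.8 and 12.9 in the KCl contralateral one. In optogenetic mice Gabrd stood at 19.1, 22.8 and 18.96 FPKM in sham, 19.4, 20.9 and 19.4 on the SD side and 21.04, 24.9 and 23.7 on the contralateral side. The systems do not overlap, with a difference of -0.43 between the shams (SE 0.10, limma adjusted p = 0.00752). Gabra2, Gabbr2, Grik5 and Gabrd were the 4 subunits called between the systems in sham mice, in the left hemispheres and in the right hemispheres alike. In the left hemispheres 9 of 32 subunits were called, against 20.2% of genes, and in the right ones 9, against 15.2% of genes, with 5 and 4 of them shared with the sham calls. The left and right hemispheres come from the same mice.

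Subunits called between the systems in stimulated mice and not in sham were Grin2c and Gabrb1 on both sides, Grm5 and Grin2b in the left hemispheres, and Grin1, Grm4 and Grik1 in the right ones. Their sham differences had the sign of these calls: Grin2c -0.43, Grin1 -0.32, Grik1 0.22, Grin2b -0.21, Grm5 0.12, Gabrb1 0.10 and Grm4 -0.08. A call in stimulated mice alone does not test whether they differ from sham mice. The interaction for SD against sham called 0 subunits, and none was fitted for contralateral against sham. Gabrb1, a GABA-A beta subunit, measured 16.9, 16.6 and 17.4 FPKM in NaCl sham, 19.1, 18.5 and 16.3 in the KCl SD hemisphere and 18.1, 18.3 and 18.3 in the KCl contralateral one. Its optogenetic values were 15.7, 14.3 and 17.3 FPKM in sham, 15.5, 15.1 and 15.9 on the SD side and 14.8, 14.7 and 15.5 contralaterally. The systems overlap in sham mice and not in the hemispheres. Grin2b was lower in the KCl system by 0.25 in the left hemispheres (SE 0.08, limma adjusted p = 0.0367), with 23.6 to 25.7 FPKM in KCl and 27.0 to 30.6 in optogenetic mice. Grik1, a kainate subunit of low level here, was higher by 0.30 in the right ones (SE 0.095, limma adjusted p = 0.0449), with 3.04 to 3.26 against 2.38 to 2.51 FPKM. In the left hemispheres Grm5 was higher by 0.21 (SE 0.05, limma adjusted p = 0.00929), and in the right ones Grin1 was at -0.70 (SE 0.17, limma adjusted p = 0.0114) and Grm4 at -0.29 (SE 0.09, limma adjusted p = 0.0443). Grin2c stood at -0.69 on the left and -0.71 on the right (SE 0.14 each, limma adjusted p = 0.00346 and 0.00382). Some marker sums did not overlap between the systems here. In the right hemispheres this was striatum (48.8 to 206.2 FPKM in KCl, 209.7 to 246.0 in optogenetic mice). In the left ones it was endothelium (24.2 to 28.1 against 28.3 to 34.2) and microglia (90.1 to 96.5 against 80.8 to 87.8). The part of these markers in the receptor values was not tested.

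The remaining calls between the shams held less widely. Gabra3 measured 39.4, 38.6 and 43.9 FPKM in NaCl sham, 42.9, 37.4 and 40.4 in the KCl SD hemisphere and 36.3, 36.5 and 39.5 in the KCl contralateral one. Light-stimulated and sham libraries of Gabra3 gave 33.95, 32.6 and 33.8 FPKM in sham, 36.5, 32.1 and 36.1 in the SD hemisphere and 32.9, 37.3 and 37.05 in the contralateral one. NaCl sham was higher by 0.27 (SE 0.07, limma adjusted p = 0.015), but in the right hemispheres the systems overlap and the difference was 0.07 (limma adjusted p = 0.571), and in the left ones it was 0.20 (limma adjusted p = 0.0527). Gabrb2, given above, was higher in NaCl sham by 0.31 (SE 0.08, limma adjusted p = 0.0168), and was called in the left hemispheres too, at 0.27 (limma adjusted p = 0.0274), but not in the right ones, at 0.14 (limma adjusted p = 0.25). Grin3a, an NMDA subunit that lowers calcium entry, measured 4.91, 3.64 and 4.33 FPKM in NaCl sham, 4.37, 4.03 and 3.39 in the KCl SD hemisphere and 4.12, 3.84 and 3.86 in the KCl contralateral one. Grin3a in the optogenetic system was at 3.29, 3.103 and 3.31 FPKM in sham, 3.49, 3.13 and 3.14 on the SD side and 3.28, 3.11 and 2.999 contralaterally. Its difference was 0.35 (SE 0.10, limma adjusted p = 0.0217) between the shams, 0.23 in the left hemispheres (limma adjusted p = 0.102) and 0.29 in the right ones (limma adjusted p = 0.0524). The call was lost without NaCl sham library 1 or 3 or optogenetic sham library 1 or 2 (limma adjusted p between 0.0502 and 0.0998). Gabra3 lost its call without NaCl sham library 3 (0.0634) or optogenetic sham library 2 (0.0577), and Gabrb2 without optogenetic sham library 2 (0.0817), all limma adjusted p.

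Over all 18 libraries 6 subunits, 18.8%, kept the 9 KCl-system values clear of the 9 optogenetic ones, against 9.52% of genes. They were Gabra2, Gabbr2 and Gabrb2 on the higher side in the KCl system and Grik5, Gabrd and Grin2c on the lower. Grin2c, an NMDA subunit of astrocytes and some interneurons, measured 5.93, 5.35 and 6.45 FPKM in NaCl sham, 5.09, 5.84 and 4.79 in the KCl SD hemisphere and 6.02, 5.22 and 3.76 in the KCl contralateral one. Optogenetic values of Grin2c were 8.94, 6.64 and 8.96 FPKM in sham, 8.94, 8.18 and 9.06 in the SD hemisphere and 7.87, 8.01 and 9.303 in the contralateral one. Between the shams its difference of -0.43 (SE 0.14, limma adjusted p = 0.0522) missed the threshold. In sham mice alone 13 of 32 subunits had non-overlapping groups, against 32.7% of genes.

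**Figure D3:**
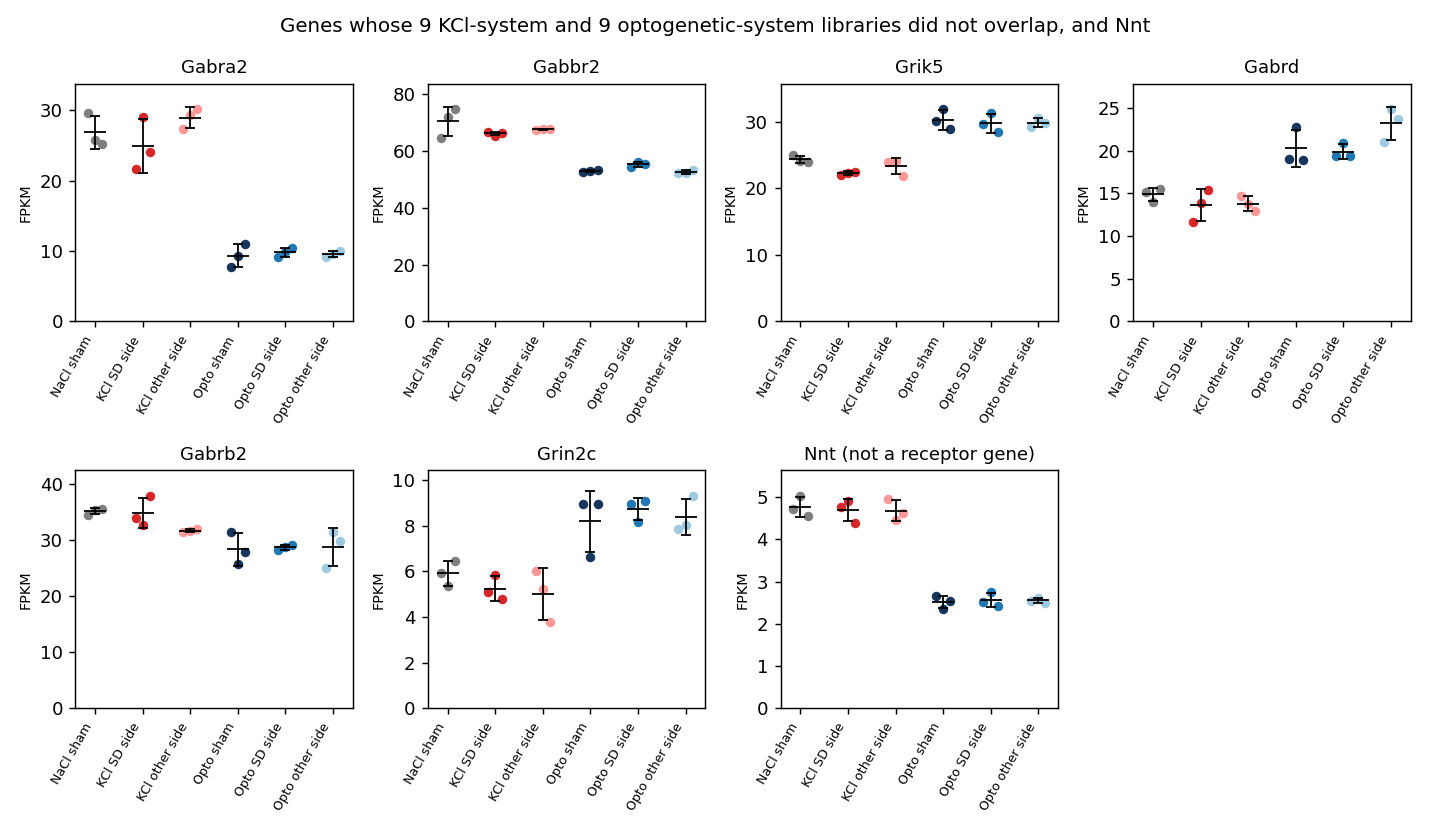
FPKM (linear axis from 0) of the 6 receptor genes whose 9 KCl-system libraries do not overlap the 9 optogenetic-system libraries, and of Nnt, with 1 point per library, the group mean as a line and its standard deviation as a bar (n = 3). Gabra2 spans 21.6 to 30.1 FPKM in KCl-system libraries and 7.75 to 11.1 in the others, and Grik5, Gabrd and Grin2c are higher in the optogenetic libraries.

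Differences between the systems mostly had the same sign in separate mice. The sign of the difference in the right hemispheres was that in sham mice for 26 of 32 subunits, and in the left hemispheres for 26. The share over all genes was not computed, so these counts have no background, and both hemispheres come from the same mice. Sham and stimulated mice are separate animals, but all KCl-system libraries were WT and deposited together, and likewise the optogenetic ones.

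**Figure D4:**
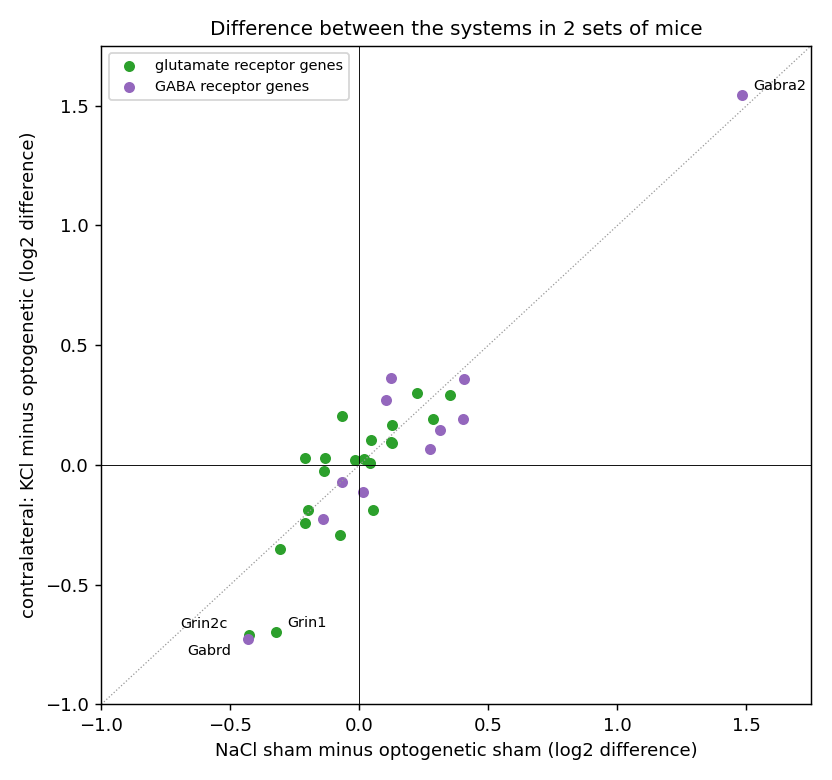
Log2 difference between the systems for the 32 receptor genes, in sham mice (x axis, NaCl sham minus optogenetic sham) and in the contralateral hemispheres of stimulated mice (y axis, KCl minus optogenetic), each point a gene, coloured by transmitter, with a dotted line of equal values. Gabra2 lies apart at 1.48 and 1.54, and Gabrd, Grin2c and Grin1 at the lower left.

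Summed by class, the systems separated in level for some classes and overlapped for others, without a test. The GABA-B pair summed to 136.6 to 150.4 FPKM in the KCl system and to 125.5 to 131.3 FPKM in the optogenetic one. Ionotropic glutamate subunits went the other way, with 292.9 to 320.8 against 323.3 to 350.7 FPKM. Within these, the AMPA sums overlapped, at 171.3 to 195.8 and 172.3 to 185.2 FPKM. Sums of the group II and III metabotropic receptors overlapped too, at 30.4 to 37.8 and 27.6 to 34.9 FPKM for group II and 16.6 to 19.04 and 15.95 to 18.2 for group III. Kainate sums were 46.1 to 51.3 and 53.6 to 58.3 FPKM, and NMDA sums 72.3 to 83.7 and 88.1 to 109.5 FPKM. By group the ratio of Grin2a to Grin2b, which rises as cortex matures, was 0.71 ± 0.06 in NaCl sham, 0.69 ± 0.02 in the KCl SD hemisphere and 0.77 ± 0.09 in the contralateral one, and 0.68 ± 0.01, 0.64 ± 0.05 and 0.64 ± 0.03 in the optogenetic groups in the same order (standard deviation, n = 3 mice each). The ratio of Gria1 to Gria2 was 1.43 ± 0.12, 1.49 ± 0.23 and 1.53 ± 0.08 in the KCl system and 1.36 ± 0.14, 1.32 ± 0.06 and 1.31 ± 0.19 in the optogenetic one. In both ratios the SD and sham groups differ by less than the larger of their standard deviations. For Grin2a to Grin2b they differ by more than the smaller standard deviation in both systems.

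Promoters are shown for 4 genes whose levels separate the systems: Gabra2, Gabbr2 and Grik5, called in every set of libraries, and Gabrb2, called in sham mice and the left hemispheres. Each is the 250 bases before a transcript start in RefSeq (GRCm38.p6), 5′ to 3′ on the strand of the gene. Gabra2 is chr5:71095850-71096099 on the minus strand, Gabbr2 chr4:46991715-46991964 on the minus strand, Grik5 chr7:25072370-25072619 on the minus strand, and the first of the Gabrb2 windows chr11:42420190-42420439 on the plus strand. Capitals mark a TATAAA box, which in the Gabrb2 window starts 30 bases before that RefSeq transcript start. The deposited locus of Gabrb2 begins upstream, at 42419757, so its window lies within that locus, and the Gabbr2 window overlaps the end of its deposited locus.
Gabra2: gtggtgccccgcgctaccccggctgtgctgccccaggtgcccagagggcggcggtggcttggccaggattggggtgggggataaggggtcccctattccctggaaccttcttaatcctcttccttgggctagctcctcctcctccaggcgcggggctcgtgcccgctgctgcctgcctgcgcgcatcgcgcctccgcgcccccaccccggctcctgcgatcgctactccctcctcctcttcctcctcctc
Gabbr2: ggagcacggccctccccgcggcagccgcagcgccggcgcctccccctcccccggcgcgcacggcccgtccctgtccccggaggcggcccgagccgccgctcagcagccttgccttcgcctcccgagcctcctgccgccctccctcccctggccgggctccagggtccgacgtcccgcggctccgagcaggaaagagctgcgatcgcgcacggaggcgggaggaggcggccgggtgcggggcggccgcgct
Grik5: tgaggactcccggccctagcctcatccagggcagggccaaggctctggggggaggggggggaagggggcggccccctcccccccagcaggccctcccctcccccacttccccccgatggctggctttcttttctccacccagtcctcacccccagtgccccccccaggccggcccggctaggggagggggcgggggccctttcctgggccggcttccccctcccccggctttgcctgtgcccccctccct
Gabrb2: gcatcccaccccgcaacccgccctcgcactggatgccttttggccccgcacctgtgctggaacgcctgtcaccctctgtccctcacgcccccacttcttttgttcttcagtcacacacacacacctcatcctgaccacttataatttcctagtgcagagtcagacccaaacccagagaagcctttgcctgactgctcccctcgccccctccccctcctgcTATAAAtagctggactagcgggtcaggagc

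Windows of 300 bases, 250 before to 50 after the start, were found for 23 of the 32 subunits, 30 windows in all, and searched on both strands. The cyclic AMP response element TGACGTCA, bound by CREB, was in 0 of the 30, against 1.79% of 32851 windows of all genes. Its shorter core TGACG was in 4 (Gabrb2, Grik2, Grin1 and Grm8), against 20.8%, counting also the full elements. The AP-1 element TGANTCA was in 1, that of Grm8, against 7.81%, and the Egr element GCGTGGGCG in 0, against 0.612%. TATAAA was in 3, of Gabra3 and Gabrb2, against 13.6%. A match is a description of letters, not of binding. Receptor windows had a median GC content of 61.0%, with a range from 38.3 to 82.0%, against a median of 52.7% over all windows.

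Genes for proteins that anchor, modify and supply these receptors were counted next. Of 78 genes in the lists of auxiliary subunits, scaffolds, other subunits and transmitter handling, 71 were tested, and limma called 0 of them in each of the 11 comparisons other than that between the shams. Medians of the 71 genes in these comparisons lay between -0.04 and 0.03. A gene not called may still have changed, since some had wide errors. Homer1, a postsynaptic scaffold, stood at 0.65 in optogenetic SD against sham (SE 0.30, limma adjusted p = 0.59). In KCl SD against sham it was at 0.15 (SE 0.255, limma adjusted p = 0.931). Between the shams 8 were higher and 6 lower in the NaCl mice, 14 of 71 or 19.7%, beside 15.9% of all genes, a share near the background. Nlgn2, the adhesion protein of inhibitory synapses, was lower by 0.68 (SE 0.09, limma adjusted p = 3.49e-04), Cacng8, an AMPA auxiliary subunit, lower by 0.51 (SE 0.09, limma adjusted p = 0.00165), Gabarap, a GABA-A trafficking protein, higher by 0.39 (SE 0.07, limma adjusted p = 0.00184), and Shank3, a postsynaptic scaffold, lower by 0.30 (SE 0.06, limma adjusted p = 0.00547).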

How the data were processed

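Cortex RNA was poly(A)-enriched, made into stranded libraries and sequenced in pairs, per the labels' protocols. FPKM were computed by the authors with StringTie on GRCm38, per the submitters' processing notes, with no version given. The deposited tables give FPKM per library for protein-coding genes (100.0% of those listed), the authors' group means on a log2 scale, a log2 fold change, the fold as a ratio, and the authors' p-value and q-value columns. They were joined by gene ID, and 1 line per file held no data.

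Genes averaging 0.5 FPKM or more entered the fit of log2(FPKM + 0.5) with limma 3.58.1 in R 4.3.3, with 1 coefficient per group and a trended prior variance, over 9 libraries per system or 18 together. Genes were called at a Benjamini-Hochberg adjusted p under 0.05. Fold changes on this scale understate those of low genes. Python 3.11.15 with pandas 2.3.3 read the tables. Depth is unknown, so precision rests on the 3 mice per group.

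Equally numbered left and right libraries are sides of 1 mouse by their titles, which pairs them, and sham mice share only a number. Deviations of the sides correlated at 0.06, 0.065 and 0.04 in the KCl mice and at 0.137, -0.089 and 0.017 in the optogenetic mice. Sides of differing number ran from -0.102 to 0.053 and from -0.166 to 0.159. Hemisphere and sham libraries of equal number, from separate mice, ran from -0.185 to 0.219 over both systems. The same-mouse values lie within that last range, so these correlations do not decide whether the pairing matters. The fits reported do not use the pairing. Alternatives were other pseudocounts, filters and scalings, a constant prior variance, a replicate block, the authors' q-values and leaving out each library.

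Genes described one by one are the most abundant of each receptor class, every called subunit and the 3 smallest p of each comparison, with those called between the systems in stimulated mice added after the data were seen. Members and lists were chosen with earlier results of these data known. Some genes that the rule names are not reported here, and counts of subunits leave them out. Loci of 31 of the 32 genes equal GENCODE M21, which gave the overlaps, and promoters are from RefSeq.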

Additional observations from a re-analysis of the deposited data

How the results depend on the processing

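With 3 mice per group and no read counts, changes of a few percent cannot be seen, and the intervals rest on the spread between these mice. No value reversed. Of 899 values of single genes under other settings, 887 kept their side of the threshold and 12 lost a call. Most values were of results not called, with a limma adjusted p of 0.24 or more in the main fit. That they kept their side says little. The 12 losses all fell on Gabra3, Gabrb2 and Grin3a, among the 7 subunits called between the shams. The count of called subunits stayed at 0 under every setting run for the 11 comparisons other than that between the shams. Between the shams, leaving out 1 library gave 5 to 9 calls, and the other settings 7 to 9 against 7. The replicate block changed no call of a named subunit: counts stayed at 0, and at 7 between the shams.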
